A study of Homo sapiens with 39 samples.

Results

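RNA carried by ribosomes was compared between 2 lines of human bronchial epithelial cells (HBEC, an airway-derived cell line): a line with the U2AF1 S34F substitution and a line labelled Frame Shift (FS). The comparison takes the 8 gradient libraries of the S34F line and the 8 of the FS line, paired by fraction, plus 1 cytosolic library of each line (Cytosol) as a check of direction, which makes 18 of the series' 39 samples. The fractions hold monosomes, mRNAs with 2, 3, 4, 5, 6 or 7 ribosomes, and a pool with 8 to 10. The labels give no treatment, and all lines were grown in keratinocyte serum-free medium with pituitary extract and EGF. They say neither which allele carries the frame shift nor whether a line is 1 clone. The wild-type line (WT), grown alike, is given as an added value where it helps to place a difference.

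U2AF1 is the small subunit of the U2AF heterodimer, which recognises the AG at the 3-prime splice site together with its partner U2AF2. S34F lies in a zinc finger of U2AF1, is recurrent in myeloid neoplasms and lung adenocarcinoma, and changes which exons are spliced in. The series title also gives U2AF1 a role in translation. In a sucrose gradient, an mRNA with more ribosomes sediments deeper, so the fraction in which it is found reports how many ribosomes it carries.

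Each line has 1 gradient, and the 8 fractions of a gradient are not replicates of a line. No test was therefore run between the lines, and the line and its gradient run cannot be told apart. Levels are CPM (counts scaled to a common library total), averaged over the 8 fractions, and differences are log2 of S34F over FS with 0.5 CPM added to both means. A gene was called when the mean differed at least 2-fold and all 8 fractions went the same way. Library totals were 4954028 to 10422595 counts in S34F fractions and 3292300 to 13367574 in FS fractions, and Cytosol held 14014285 in S34F and 29769968 in FS. In bulk RNA, fewer cells of a type and less RNA per cell cannot be told apart.

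Airway basal markers were abundant in both gradients. All 10 basal markers passed the filter on low counts, and their summed level was 10770 to 20630 CPM over the S34F fractions and 9198 to 18600 CPM over the FS fractions. Of 6 defining secretory and ciliated markers 0 passed it, with summed levels of at most 18.2 CPM in S34F and 14.9 CPM in FS. A longer list of 20 such genes had 3 that passed, CAPS, PIGR and SLPI. PIGR, the polymeric immunoglobulin receptor, averaged 46.1 CPM in S34F and 56.7 CPM in FS, and SLPI, a secreted protease inhibitor, 38.9 CPM in S34F and 22.8 CPM in FS. The 7 fibroblast markers summed to 3.45 to 19.8 CPM in S34F fractions and 3.22 to 13.1 CPM in FS fractions. Of 31 mesenchymal and EMT genes, 13 passed and 0 were called, where 0.898% of all tested genes were called higher and 2.6% lower. Some of the 13 were abundant in both lines. FN1, the matrix protein fibronectin, averaged 3298 CPM in S34F and 4142 CPM in FS, and VIM, an intermediate filament protein, 323.5 CPM in S34F and 378 CPM in FS. The 4 immune markers summed to 59.8 to 151 CPM in S34F and 50.8 to 145 CPM in FS, mostly CD68, a lysosomal protein that epithelial cells also make. The 4 endothelial markers summed to 4.01 to 27.7 CPM in S34F and 6.18 to 18.9 CPM in FS.

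U2AF1 mRNA itself was lower in the S34F line. Its level was 12.9 to 40.7 CPM over the S34F fractions, with a median of 24.85 CPM, against 15.1 to 102 CPM over the FS fractions, with a median of 55.5 CPM. The means were 24.4 CPM in S34F and 57.8 CPM in FS, a log2 difference of -1.23, and WT had 44.3 CPM. S34F was lower in 7 of 8 fractions, and the ranges overlapped. Monosomes were the exception, with 16.4 CPM in S34F and 15.1 CPM in FS, so U2AF1 did not meet the rule for a call. Summed over each gradient the ratio was 0.399 (95% exact interval 0.376 to 0.422, counting error only). The Cytosol pair went the same way, with 21.4 CPM in S34F and 54.7 CPM in FS, a log2 difference of -1.33, and 53.9 CPM in WT. The partner U2AF2 did not share the gradient difference, with a mean of 151.7 CPM in S34F and 138.3 CPM in FS. In Cytosol U2AF2 was lower in S34F, with 409 CPM in S34F and 524 CPM in FS, a log2 difference of -0.35. A gene-level count cannot show the S34F substitution or the frame shift, so neither genotype was checked by it.

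**Figure D1:**
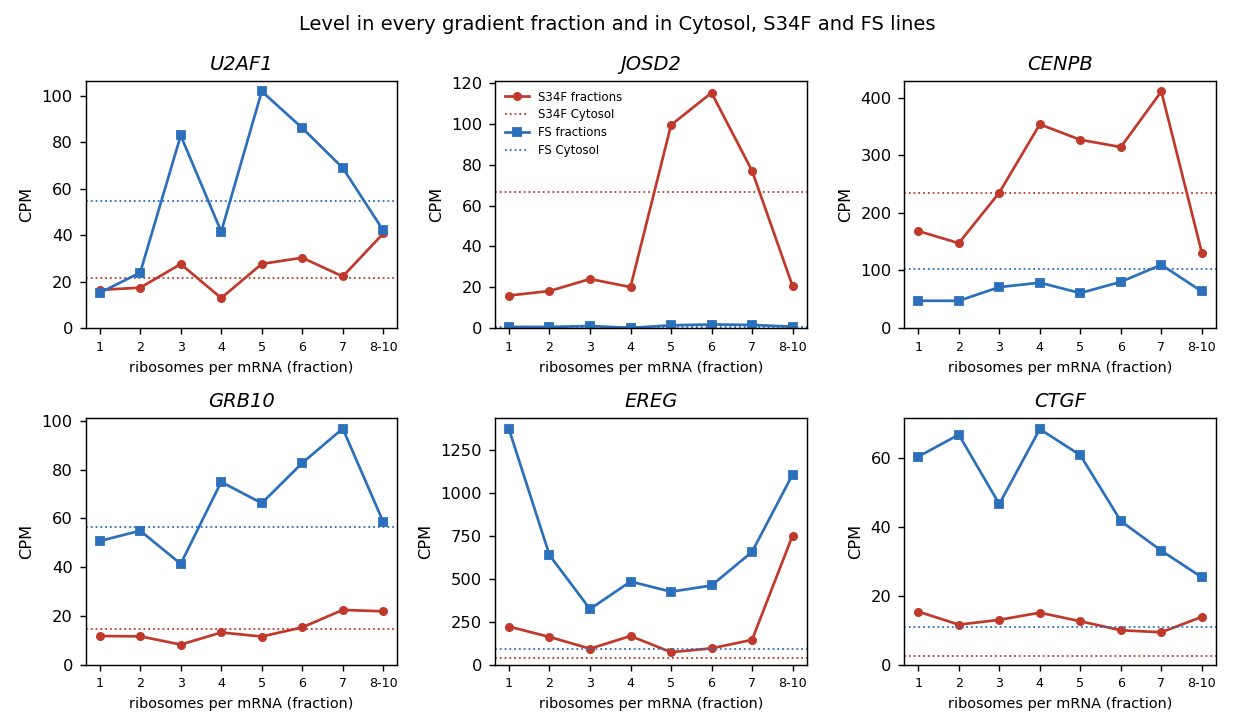
CPM of 6 genes in each gradient fraction (x axis, ribosomes per mRNA, 1 for monosomes) of the S34F line (red circles) and the FS line (blue squares), with the Cytosol level as a dotted line. Each point is 1 library. JOSD2 stays at or below 1.66 CPM in every FS fraction, CENPB is higher in every S34F fraction, GRB10, EREG and CTGF are lower in every S34F fraction, and U2AF1 is lower in 7 of 8.

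Of 11919 genes with at least 500 counts over the 16 gradient libraries, 107 were called higher in S34F (0.898%) and 310 lower (2.6%). Without the demand on single fractions, 148 genes were at least 2-fold higher in the mean (1.24%) and 1086 at least 2-fold lower (9.11%). Among the called genes, 61 had fractions that did not overlap between the lines, 22 higher and 39 lower. The share without overlap over all tested genes was not taken, so this count has no background. Genes without a call can also lack overlap, as KRT19 did at 0.87. At the boundary stood C19orf43, called at 1.01, and NSFL1C, not called at 0.9985, and on the other side ABCB10, called at -1.001, and PPIL1, not called at -0.9965. The balance of the calls rested on the scaling. The higher share of the calls was 25.66% with CPM, 56.36% with TMM factors (217 higher, 168 lower) and 68.02% with DESeq2 size factors (336 higher, 158 lower), and the median difference of all genes was -0.11, -0.0029 and 0.0946 under the 3 scalings.

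The Cytosol pair gave a check in separate libraries of the same lines. Their titles place them in the RIP-seq set, and their counts were deposited apart from those of the gradients. Of 11919 genes tested, 793 had too few Cytosol counts to be checked, some of them abundant in the gradient. KRT19 averaged 1767 CPM in the S34F and 964 CPM in the FS gradient, with 0 CPM in both Cytosol libraries. Whether gradient and Cytosol libraries were counted alike was not tested. Of 103 genes called higher with enough Cytosol counts, 84 were also higher in S34F Cytosol (81.6%), and 36 of them by at least 2-fold (35%). Over all 11126 genes checked, 53.2% were higher in S34F Cytosol and 10.1% at least 2-fold higher. Of 305 genes called lower, 180 were lower in S34F Cytosol (59%), 63 of them by at least 2-fold (20.7%), against 46.8% and 7.61% of all genes checked. Without the 8-10 fraction, 1928 genes were called lower, and 40.7% of those checked were lower in S34F Cytosol. Across all genes checked the polysomal and Cytosol differences were nearly unrelated, at a Pearson r of 0.0136 and a Spearman rho of -0.0058. The genes share their libraries and are not independent replicates. For 8100 well-counted genes r was 0.0048. The median Cytosol difference was 0.59 for genes called higher and -0.21 for genes called lower, against 0.05 for all.

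**Figure D2:**
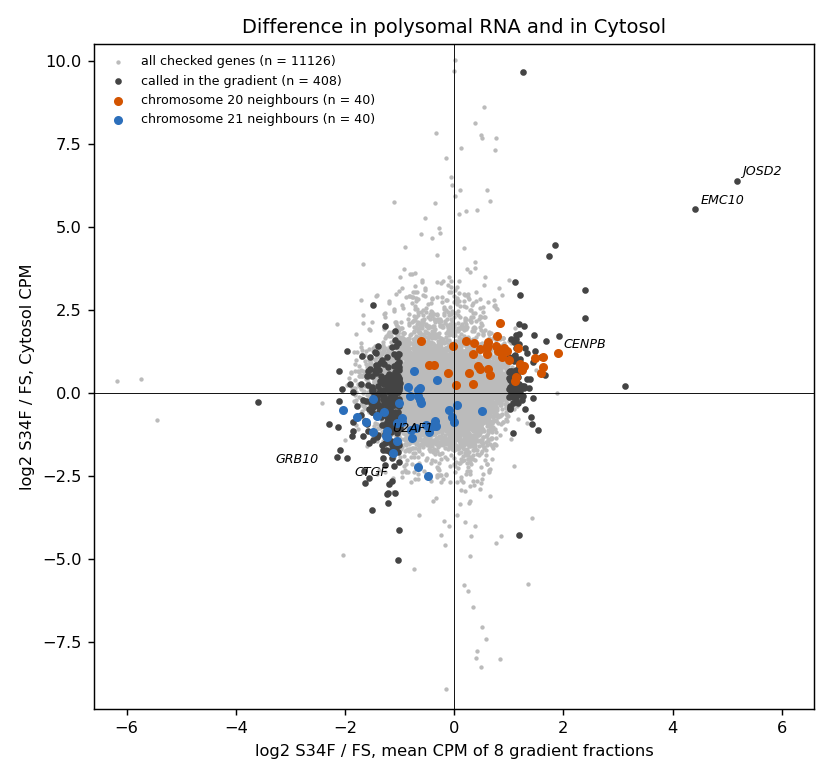
Log2 difference S34F over FS of each gene in the gradient (x axis, mean CPM of 8 fractions) and in Cytosol (y axis), for the 11126 genes with a Cytosol value. Dark points are the 408 called genes, and orange and blue points are 40 neighbouring genes each on chromosomes 20 and 21. The cloud has no tilt, JOSD2 and EMC10 stand alone at the upper right, and the orange genes sit above 0 in Cytosol.

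The strongest differences belonged to a pair of adjacent genes on chromosome 19 that were nearly silent in the FS line. JOSD2, a deubiquitinase with a Josephin domain, was at 15.9 to 115 CPM over the S34F fractions, with a median of 22.3 CPM, against 0 to 1.66 CPM in FS, with a median of 0.757 CPM. Its neighbour EMC10, a subunit of the ER membrane complex that inserts proteins into the membrane, was at 21.5 to 54.7 CPM in S34F, with a median of 45.0 CPM, against 0.704 to 2.63 CPM in FS, with a median of 1.54 CPM. No S34F fraction came near an FS fraction for either gene.

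The log2 differences were 5.18 for JOSD2 and 4.42 for EMC10. Summed over the gradients the ratios were 55.6 (43.0 to 73.3) and 32.2 (26.1 to 40.2), with exact intervals for counting error only. Cytosol repeated both, with 66.9 CPM in S34F and 0.302 CPM in FS for JOSD2, and 39.4 CPM in S34F and 0.359 CPM in FS for EMC10. WT had 83.3 CPM of JOSD2 and 122 CPM of EMC10 in its gradient, so FS was the line that stood apart. The next gene beside EMC10, FAM71E1, was low in all lines but went the same way. Its mean was 1.44 CPM in S34F, 0.158 CPM in FS and 7.23 CPM in WT, from 82.8 gradient counts in S34F and 6.94 in FS. In Cytosol FAM71E1 was at 2.43 CPM in S34F, 0 CPM in FS and 3.60 CPM in WT. Further out, SPIB had 19.9 CPM in S34F, 16.5 CPM in FS and 23.6 CPM in WT.

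In a few longer stretches neighbouring genes moved together too. Windows of 15 well-counted neighbours were scanned along each chromosome after the values had been seen. Of 1562 windows, 6 were higher and 8 lower in S34F by a median of at least 0.5 past the all-gene median in the gradient and in Cytosol alike, and 4 were past it in opposite directions. Across all windows the gradient and Cytosol medians were nearly unrelated, at a Pearson r of 0.0219. Merged, the windows past the limit the same way gave 4 stretches, on chromosomes 20, 21 and 1. These stretches were picked by these values, so their medians describe them and carry no test. Positions along a chromosome are given by gene order, since the genome build is not given in the sources used here.

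On chromosome 20, 40 genes from ZCCHC3 to FERMT1 were higher in S34F. Their median log2 difference was 0.71 in the gradient and 1.09 in Cytosol. In the gradient 37 of the 40 lay above the all-gene median, in Cytosol all 40. Called higher were 10 of them, SOX12, FAM110A, SNRPB, IDH3B, PCED1A, MRPS26, DDRGK1, C20orf27, CENPB and CDC25B, and none was called lower. SNRPB lost its call without fraction 6 and when length was taken into account (subtracting the median of genes of like transcript length), DDRGK1 lost it with length, and PCED1A without fractions 5 and 6. Both lines lay under WT here, S34F by a median of -0.78 and FS by -1.43 in the gradient, and S34F by -0.81 and FS by -1.71 in Cytosol.

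CENPB, which binds alpha-satellite DNA at centromeres, was at 130.5 to 411 CPM in S34F fractions, with a median of 274.5 CPM, against 47.1 to 109.7 CPM in FS fractions, with a median of 67.0 CPM. The ranges did not overlap, and the log2 difference was 1.90, with 1.20 in Cytosol. CDC25B, a phosphatase that activates cyclin-dependent kinases, had 115 to 161 CPM in S34F and 36.6 to 75.0 CPM in FS. SOX12, a SoxC transcription factor, had 57.1 to 228 CPM in S34F and 21.8 to 56.03 CPM in FS. Neither gene's ranges overlapped. SNRPB, a core Sm protein of the spliceosome, averaged 127 CPM in S34F and 58.6 CPM in FS, and MRPS26, of the mitochondrial small ribosomal subunit, 30.5 CPM in S34F and 9.82 CPM in FS.

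On chromosome 21, 40 genes from SMIM11 to ADARB1 were lower in S34F, and U2AF1 is one of them. Their median log2 difference was -0.75 in the gradient and -0.81 in Cytosol, with 35 of the 40 on the lower side in each and 30 in both. Called lower were 11, HLCS, DSCR3, DYRK1A, DSCAM, ZBTB21, CBS, RRP1B, AGPAT3, TRAPPC10, PTTG1IP and ADARB1, and none was called higher. Here S34F was the line below WT, by a median of -0.48 in the gradient and -0.97 in Cytosol, while FS stood at 0.15 and -0.21. DSCR3, PTTG1IP, AGPAT3, ADARB1 and DYRK1A lost their calls when length was taken into account. DSCR3 and PTTG1IP also lost them with TMM or DESeq2 factors and without fraction 7, PTTG1IP without fraction 5, and DYRK1A without fractions 5 and 6.

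CBS, which makes cystathionine from homocysteine, averaged 53.4 CPM in S34F, 117 CPM in FS and 138.7 CPM in WT. It was 68.1 CPM in S34F Cytosol, 238.7 CPM in FS Cytosol and 225 CPM in WT Cytosol. Its call was lost with TMM or DESeq2 factors and without the 8-10 fraction. DYRK1A, a kinase in the Down syndrome region, was at 7.77 to 65.3 CPM in S34F fractions and 25.8 to 81.7 CPM in FS fractions, with overlapping ranges. ADARB1, an adenosine deaminase that edits RNA, was at 8.89 to 18.0 CPM in S34F and 20.2 to 44.4 CPM in FS, with no overlap. CSTB, a cathepsin inhibitor in the same stretch, had means of 70.8 CPM in S34F and 68.4 CPM in FS, so not every neighbour followed in the gradient. In Cytosol CSTB was lower in S34F, at 48.7 CPM in S34F and 63.2 CPM in FS.

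**Figure D3:**
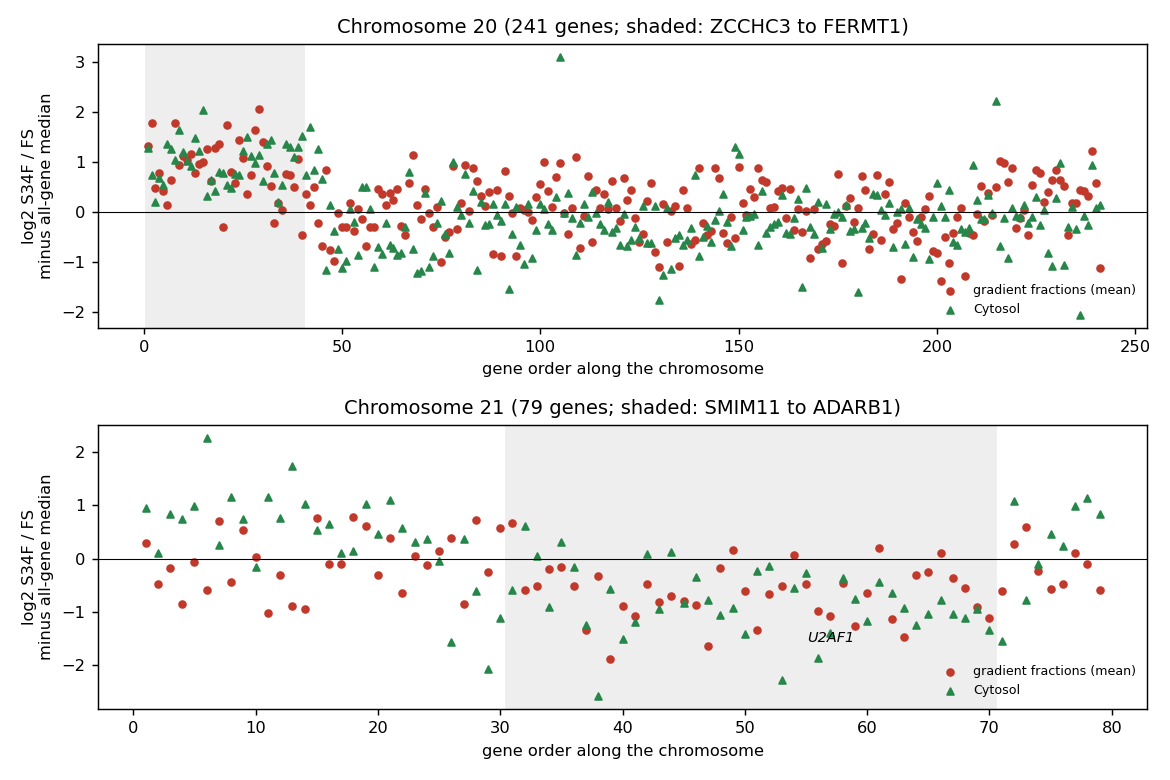
Log2 difference S34F over FS less the all-gene median for well-counted genes in their order along chromosome 20 (top, 241 genes) and chromosome 21 (bottom, 79 genes). Red circles are gradient means, green triangles Cytosol, and the shading marks ZCCHC3 to FERMT1 and SMIM11 to ADARB1. In the shaded stretches both kinds of point lie mostly on one side of 0, above it on chromosome 20 and below it on chromosome 21.

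Some symbol forms were left out by name before ranking, NLRP2 among them. Of the remaining called genes at 10 CPM or more and at least 2-fold apart in Cytosol, 23 were higher and 39 lower. The 15 most different of these on each side were described. Outside the stretches above, the higher genes were mixed in function. LFNG, a glycosyltransferase that modifies Notch receptors, was at 16.9 to 29.99 CPM in S34F fractions and 5.36 to 16.1 CPM in FS fractions, without overlap. Its log2 difference was 1.33, with 1.21 in Cytosol. SLC47A2, an exporter of organic cations, was at 17.8 to 52.1 CPM in S34F, with a median of 29.2 CPM, against 6.58 to 17.7 CPM in FS, with a median of 10.0 CPM.

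HCFC1R1, a regulator of the HCFC1 cofactor, averaged 149 CPM in S34F, 49.1 CPM in FS and 39.9 CPM in WT, with overlapping ranges. Both LFNG and SLC47A2 were lower still in WT, at 2.46 and 1.94 CPM. KLHDC8B, FRAT2, C5orf38, C15orf61, ZNF837 and FAM173A had log2 differences of 1.18 to 1.30 in the gradient and 1.03 to 2.08 in Cytosol. MZT2A, of the gamma-tubulin ring complex, averaged 286 CPM in S34F and 119 CPM in FS. It was listed at 0 in FS fraction 3 and FS Cytosol, and MZT2B is a near-identical copy with which reads may have been split.

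The lower genes were mixed as well. GRB10, an adaptor that restrains insulin receptor signalling, was at 8.21 to 22.4 CPM in S34F fractions, with a median of 12.4 CPM, against 41.3 to 96.8 CPM in FS, with a median of 62.3 CPM. Its log2 difference was -2.15, with -1.93 in Cytosol, and WT averaged 5.04 CPM, so FS was the high line. CTGF, a matricellular protein and a classic target of YAP and TEAD, was at 9.42 to 15.4 CPM in S34F and 25.4 to 68.5 CPM in FS. For GRB10 and CTGF the fractions did not overlap.

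TEAD1, the DNA-binding partner of YAP, averaged 83.3 CPM in S34F, 301 CPM in FS and 92.8 CPM in WT. In the Cytosol pair it was at 11.4 CPM in S34F and 25.9 CPM in FS. ADGRL2, an adhesion receptor of the latrophilin family, averaged 18.7 CPM in S34F, 83.6 CPM in FS and 12.4 CPM in WT. PCDH7, a protocadherin, was at 18.4 to 44.7 CPM in S34F and 52.5 to 119.9 CPM in FS, without overlap, and its log2 ratio varied least among the lower genes named, with an SD of 0.20 over the 8 fractions. GRB10, ADGRL2, CTGF, TEAD1 and PCDH7 were all higher in FS than in WT.

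EREG, a ligand of the EGF receptor, was at 72.4 to 753 CPM in S34F fractions, with a median of 153 CPM, against 324 to 1374 CPM in FS, with a median of 562 CPM. S34F was lower in 8 of 8 fractions, but its 8-10 fraction lay above most FS fractions. IL1A, the epithelial alarmin interleukin-1 alpha, behaved alike, at 65.8 to 586 CPM in S34F and 320.2 to 749 CPM in FS. WT stood between the lines for both, with means of 499 CPM for EREG and 292 CPM for IL1A. SLC20A1, a phosphate importer, averaged 93.6 CPM in S34F, 248.5 CPM in FS and 216 CPM in WT. The other lower genes described were SLC36A4, SIAH1 and TBC1D23, at -1.66, -1.28 and -1.21, besides HLCS, DYRK1A, ADARB1 and CHML of the stretches. SIAH1 was listed at 0 in 1 S34F fraction. These 30 genes all kept their calls with TMM or DESeq2 factors, and all but FAM173A (lost without fraction 6) did so without any single fraction. C15orf61, MZT2A, FAM173A, CHML, ADARB1, DYRK1A and TBC1D23 lost them when length was taken into account, and KLHDC8B, C15orf61, ZNF837, FAM173A and DYRK1A without fractions 5 and 6.

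The gene lists and their members were chosen with earlier results of these data known. Their shares beside those of all genes describe the lists and carry no test. A list of inflammatory cytokines, chemokines and related response genes had its called members lower in the S34F gradient. Of its 13 tested genes, 3 were called lower (IL1A, TNFAIP3 and PTGS2) and 0 higher, against 2.6% and 0.898% of all genes. Among these called genes only IL1A is a cytokine. The list's median log2 difference was -0.49 in the gradient and in Cytosol. Above 0 in the gradient were 4 of the 13, CCL5, IL11, IL1RN and CSF1. TNFAIP3, an inhibitor of NF-kappaB that is itself induced by it, was at 15.6 to 38.9 CPM in S34F and 73.3 to 188 CPM in FS, without overlap, a log2 difference of -2.29, with -0.93 in Cytosol. PTGS2, the inducible prostaglandin synthase, averaged 12.2 CPM in S34F and 37.2 CPM in FS, and its call was lost with TMM factors. CXCL8, the chemokine interleukin-8, was too low for the filter, with means of 0.645 CPM in S34F, 4.89 CPM in FS and 3.26 CPM in WT. It was lower in 8 of 8 S34F fractions, several of them under the level of 3 counts.

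Of 27 immediate-early genes, 4 were called lower (CTGF, SPRY4, KLF6 and ATF3) and 0 higher, against 2.6% and 0.898% of all genes, with a median of -0.42. With TMM or DESeq2 factors 2 were called lower and 1 higher. SPRY4 and KLF6 lost their calls when length was taken into account. SPRY4, a feedback inhibitor of receptor tyrosine kinase signalling, averaged 57.8 CPM in S34F, 139.7 CPM in FS and 202 CPM in WT. KLF6 and ATF3, both stress-induced transcription factors, were at -1.05 and -1.03, lost their calls with TMM and with DESeq2 factors and without fraction 1, and were not lower in Cytosol, at 0.05 and 0.75.

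Of 21 EGF receptor family and growth factor receptor genes, EREG and HBEGF were called lower and FGFR3 higher. The shares of all genes were 2.6% lower and 0.898% higher. HBEGF, a membrane-anchored EGF receptor ligand, was at 28.4 to 111 CPM in S34F and 62.3 to 234.5 CPM in FS. FGFR3 averaged 8.13 CPM in S34F and 3.56 CPM in FS, and its call was lost without fraction 5 and without fractions 5 and 6. Among 18 TGF-beta and Wnt genes, 2 were called lower, against 2.6% of all genes. TGFBR2, the type II TGF-beta receptor, was at -1.51 and SFRP1, a secreted Wnt antagonist, at -1.21. TGFBR2 lost its call with TMM factors, and SFRP1 when length was taken into account. No gene of the list was called higher with CPM, but 2 were with TMM or DESeq2 factors. Of 14 Notch pathway genes, LFNG was called higher and 0 lower, against 0.898% and 2.6% of all genes. The median was 0.47 in the gradient and 0.70 in Cytosol. With TMM or DESeq2 factors 2 were called higher.

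Most ribosomal protein and respiratory chain mRNAs lay above 0. Of 78 ribosomal protein genes, 4 were called higher and 0 lower, against 0.898% and 2.6% of all genes. In the gradient 73 of the 78 were above 0, against 5231 of 11919 tested genes, and the median was 0.62. With TMM factors 8 were called higher, with DESeq2 factors 14, and without fractions 5 and 6 only 2. RPL41 averaged 3808 CPM in S34F and 1741 CPM in FS, RPL37A 631.5 CPM in S34F and 293 CPM in FS, and RPL39 804.5 CPM in S34F and 394 CPM in FS. Each of these 3 lay within 1.03 to 1.13 and lost its call when length was taken into account and without at least 1 single fraction (2 for RPL41, 5 for RPL37A, and 4, 5 or 6 for RPL39). In Cytosol the list had a median of 0.27, with 70 of 78 above 0, against 53.2% of all genes checked. Ribosomal proteins have many processed pseudogenes, with which reads can be shared.

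Of 72 respiratory chain subunits, 2 were called higher (ATP5I at 1.16 and COX7A2 at 1.09) and 0 lower. The shares of all genes were 0.898% higher and 2.6% lower. Above 0 were 58 of the 72, against 5231 of 11919 tested genes. The median was 0.54 in the gradient and -0.07 in Cytosol. With TMM factors 8 were called higher and with DESeq2 factors 16, and without fractions 5 and 6 the median was 0.26. Both named calls were lost without fraction 6 and when length was taken into account. Translation factors had medians of opposite sign in the gradient and in Cytosol. Of 43, only EIF5, which triggers GTP hydrolysis at the start codon, was called, at -1.11. The call was lost with TMM or DESeq2 factors. The list's median was -0.47 in the gradient and 0.38 in Cytosol, with 11 above 0 in the gradient and 38 in Cytosol. Of all genes, 5231 of 11919 were above 0 in the gradient and 53.2% of those checked in Cytosol.

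The lists closest to the function of U2AF1 held no call, where 0.898% of all genes were called higher and 2.6% lower. Of 13 tested U2AF and 3-prime splice site factors, 0 were called, and the median was -0.05, against -0.11 for all genes, but 0.06 with TMM and 0.17 with DESeq2 factors. UHMK1, a kinase of splicing factor SF1, averaged 211 CPM in S34F and 592 CPM in FS, but was higher in 1 of 8 S34F fractions and, at 43.5 CPM in S34F and 28.3 CPM in FS, higher in S34F Cytosol. Of 28 genes known for S34F-sensitive exons, 0 were called, with a median of -0.47 in the gradient and -0.06 in Cytosol. Gene counts do not show exon use. Of 19 genes of the nonsense-mediated decay list, 2 were called lower and 0 higher, against 2.6% and 0.898% of all genes. GADD45A, whose transcript the pathway degrades, was one of them at -1.10, and its call was lost with TMM or DESeq2 factors.

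Cholesterol and cell cycle genes had medians farther from 0 in Cytosol than in the gradient. Of 31 cholesterol and fatty acid synthesis genes, only MSMO1, a sterol demethylase, was called, lower at -1.17. The shares of all genes called were 2.6% lower and 0.898% higher. The MSMO1 call was lost with TMM or DESeq2 factors. The list's median was -0.23 in the gradient and -0.80 in Cytosol. In Cytosol 4 of 31 were above 0, against 53.2% of all genes checked. The same shares of all genes apply to the next 3 lists. Mitosis and cell cycle genes had 0 of 32 called and medians of -0.05 in the gradient and -0.55 in Cytosol. DNA replication genes had 0 of 32 called, with -0.11 in the gradient and -0.54 in Cytosol. For p53 targets 0 of 26 were called, with -0.08 in the gradient and 0.35 in Cytosol. The gradient medians of these last 3 lists were above 0 with TMM and with DESeq2 factors. Of the p53 targets 11 of 26 were above 0 in the gradient, and the 2 most abundant went opposite ways. CDKN1A, the p21 cell cycle inhibitor, was higher in 8 of 8 S34F fractions, with means of 1997 CPM in S34F and 1366 CPM in FS. In Cytosol CDKN1A was at 2305 CPM in S34F and 1459 CPM in FS. MDM2 was lower in 7 of 8 S34F fractions, with means of 801 CPM in S34F and 1617 CPM in FS. In Cytosol MDM2 was at 119.8 CPM in S34F and 144 CPM in FS.

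**Figure D4:**
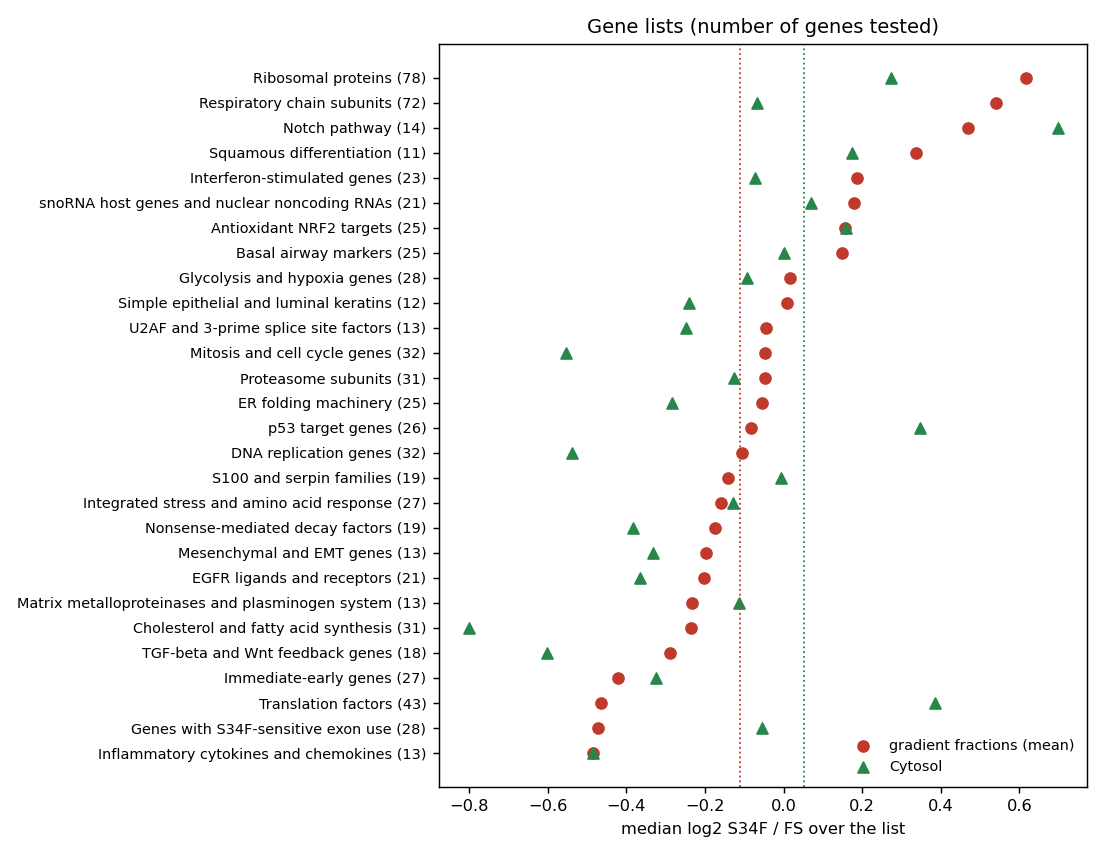
Median log2 difference S34F over FS of each gene list with at least 10 tested genes, in the gradient (red circles) and in Cytosol (green triangles), with the number tested in brackets and the all-gene medians as dotted lines. Ribosomal proteins (0.62) and respiratory chain subunits (0.54) lead in the gradient, translation factors lie on opposite sides of 0, and cholesterol synthesis (-0.80) is lowest in Cytosol.

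Transcript length moved with these differences. In the decile of tested genes with the shortest transcripts (median 970.5 bases, lengths as deposited) the median log2 difference was 0.34, and in decile 9 (median 6300 bases) it was -0.39. The Pearson r across genes between the gradient difference and log length was -0.31, and for Cytosol it was -0.0008. Genes called higher had a median length of 1537 bases and genes called lower 4498 bases, against 3288 bases for all tested. In the longest decile the median gene stood at 40.2 CPM in S34F, 53.9 CPM in FS and 35.3 CPM in WT. In the shortest decile it stood at 35.0 CPM in S34F, 27.8 CPM in FS and 34.3 CPM in WT. The FS line was the one away from WT at both ends.

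With the median of its length class subtracted from each gene, 126 genes were called higher and 162 lower, of which 65 and 146 were among the calls above. The ribosomal protein median was then 0.33, and that of respiratory chain subunits 0.25, while the immediate-early and cytokine medians stayed at -0.39 and -0.47. The part of length in the single calls was not tested further.

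The fractions did not contribute equally. The median log2 difference lay between -0.14 and 0.03 in monosomes, fractions 2 to 4 and the 8-10 fraction, and at -0.31, -0.63 and -0.23 in fractions 5, 6 and 7. In fraction 6, 1158 genes were at least 2-fold higher and 4385 at least 2-fold lower, and the shortest and longest deciles stood at 0.61 and -1.32. The S34F profile of fraction 6 was closer to FS fraction 7 (r 0.56 across 11919 genes, levels relative to the gene's own mean) than to FS fraction 6 (0.25), and that of S34F fraction 4 closer to FS monosomes (0.50) than to FS fraction 4 (0.39). The other 6 matched their own number best. Without fractions 5 and 6, 77 genes were called higher and 176 lower.

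**Figure D5:**
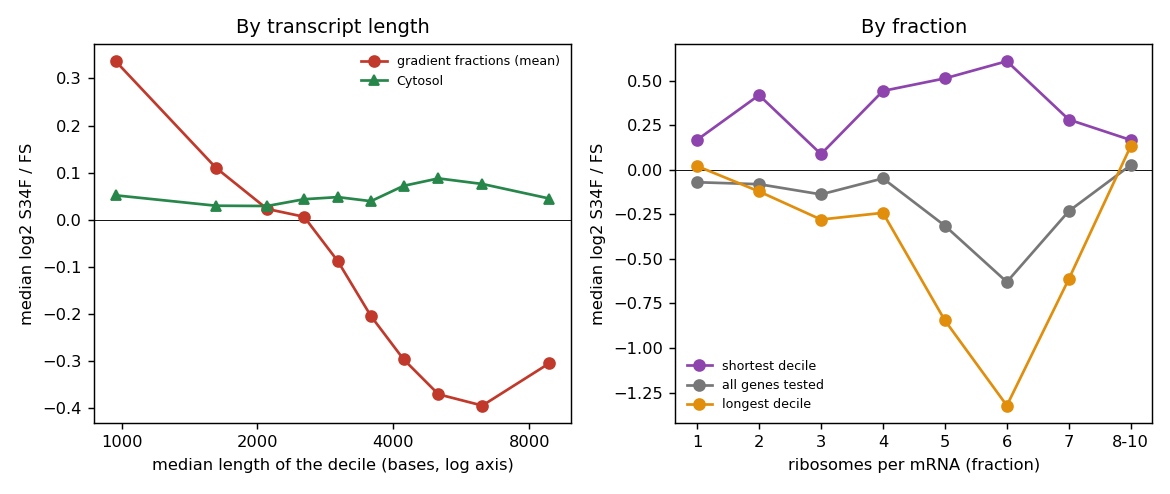
Left, median log2 difference S34F over FS in deciles of tested genes by transcript length, in the gradient (red) and in Cytosol (green). Right, the median per fraction for all tested genes (grey) and for the shortest (purple) and longest (orange) deciles. The gradient line falls to -0.39 while Cytosol stays near 0, and the deciles are farthest apart in fraction 6.

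Gradient position asks a different question, whether an mRNA sat deeper in 1 line. It was taken as the CPM-weighted mean ribosome number, with 9 for the pooled fraction, as S34F minus FS less the median over genes. CPM gives each fraction the same total, so this is a relative index and not a count of ribosomes. Of 10102 genes, 1810 were at least 0.5 heavier in S34F (17.9%) and 567 lighter (5.61%). Most heavier calls rested on the pooled 8-10 fraction. Without it 228 genes were heavier and 528 lighter. Of 1428 heavier genes that could be set beside that version, 62 remained called and 455 stayed on the same side. Of 549 lighter genes 99 remained called and 400 stayed on the same side.

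TOP2A, a DNA topoisomerase of dividing cells, was at 177 CPM in the S34F 8-10 fraction and 54.0 CPM in the FS 8-10 fraction, while fractions 1 to 7 ran from 16.1 to 41.3 CPM in S34F and from 19.1 to 68.2 CPM in FS. Its position was 6.19 in S34F and 4.17 in FS, 1.99 heavier after centring, but 0.07 without the 8-10 fraction. HSP90B1, the ER chaperone GRP94, EPRS, the glutamyl-prolyl tRNA synthetase, CAND1, a cullin exchange factor, and COPB1, a coat subunit of Golgi vesicles, were 1.72 to 1.82 heavier, and -0.03 to 0.12 without that fraction. The mitosis list had a median of 0.68 with 18 of 30 genes heavier, and -0.03 with 1 heavier without it. For 43 translation factors 18 were heavier and 0 lighter, with a median of 0.30, against 0 heavier and 0.09 without it. Of all genes 17.9% were heavier and 5.61% lighter with the 8-10 fraction, and 228 of 9494 were heavier without it.

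NPM1, the nucleolar protein nucleophosmin and a proposed translational target of U2AF1, averaged 471 CPM in S34F and 617 CPM in FS. It was lower in S34F in 7 of 8 fractions but had 1484 CPM in the S34F 8-10 fraction, against 905 CPM in the FS 8-10 fraction. Its position was 5.82 in S34F and 4.58 in FS, 1.21 heavier after centring, and 0.25 without that fraction. In Cytosol it was 507 CPM in S34F and 398 CPM in FS. NPM1 has many processed pseudogenes, with which reads can be shared.

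On the lighter side, AGO2, the slicing Argonaute, was at 955 CPM in S34F fraction 2 and between 44.7 and 201 CPM in its other fractions, while FS fractions ran from 57.0 to 316 CPM. Its position difference was -2.57, and between -3.37 and -1.39 with single fractions left out. DICER1, the ribonuclease that makes microRNAs, had 609 CPM in S34F fraction 2 and at most 67.3 CPM in the other S34F fractions, against 25.2 to 71.8 CPM in FS. Its position difference was -2.14, but 0.52 without fraction 2, so 1 library decided it. Both genes of the microRNA pathway peaked in that same library. ORAI3, a subunit of store-operated calcium channels, stood at -1.61 and TUBG1, the gamma-tubulin of centrosomes, at -1.39. Without the 8-10 fraction they stood at -0.65 and 0.08. KRT6C, KRT16 and NOMO1 were listed at 0 in several fractions and have close paralogs, so their positions are uncertain, as are those of MTRNR2L1, MTRNR2L6 and MTRNR2L10, which resemble the mitochondrial ribosomal RNA.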

How the data were processed

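The authors deposited expected counts per gene symbol, per the file headers of 1 gradient table and of a Count column for Cytosol. Of the gradient values 56.6% and of the Cytosol values 31.8% were not whole. TopHat is the only tool in the submitters' processing notes; counting tool, annotation, strand and build are not given in the sources used here. Of 21603 entries, 28 with names turned into dates and 45 repeats were dropped, leaving 21530 symbols. Transcript lengths and gene order are those of the deposited Cytosol table. Counts were scaled to CPM per library (Python 3.11.15, pandas 2.3.3). Where a library has no count, the limit taken is 3 counts, equal to 0.288 to 0.606 CPM in S34F and 0.224 to 0.911 CPM in FS fractions. Ratio intervals are exact at 95% and, like this limit, cover counting error only.

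Genes needed 500 counts over the 16 libraries, 20 over the Cytosol pair to be checked there, and 500 in each gradient for position. Alternatives were TMM (edgeR 4.0.16), DESeq2 1.42.0 size factors, summed counts, each fraction left out, other filters, pseudocounts and folds, and, after seeing the data, length classes, 2 pairs of fractions left out and the neighbour scan. Genes named are the 15 highest and 15 lowest called genes at 10 CPM or more with a 2-fold Cytosol difference the same way. Added to these are up to 4 called members per list (or its 2 most abundant), the 8 most shifted each way in position, and 6 fixed genes. The highest, lowest and most shifted genes leave out symbol forms taken to share reads with other genes. Symbols ending in P and a number are among these forms, which also takes out genes such as NLRP2. Called genes and close neighbours in the stretches were chosen after their values were seen. The members and all 33 lists were chosen with earlier results of these data known. U2AF1 precipitates, immunoglobulin controls and PAR-CLIP were not used here. Some called genes are not reported here by name.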

Additional observations from a re-analysis of the deposited data

How the results depend on the processing

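No paired analysis was possible because the lines share fraction numbers but no replicate numbers, so no replicate block could be fitted. Fractions were matched in the calling rule, with no test between lines. With TMM factors 217 genes were called higher and 168 lower, 73.1% of called genes had the same direction in Cytosol (64.7% as reported) and U2AF1 stood at -1.08; with DESeq2 factors these were 336, 158, 70.0% and -0.98. With length-class medians subtracted, 162 were lower and the Cytosol share was 71.4%. Agreement in at least 6 of 8 fractions gave 1076 lower, and a 1.5-fold limit 457 higher and 791 lower. Without fractions 5 and 6, 176 were lower, U2AF1 was at -0.99 and 870 positions were lighter; without fractions 4 and 6, the Cytosol share was 71.5%, U2AF1 -1.13 and 886 were lighter. Weighting the pooled fraction 8 gave 359 lighter, and 2000 counts per gradient 761 heavier and 190 lighter. Leaving out single fractions gave 90 to 156 higher, 241 to 1928 lower, a Cytosol share of 43.7% to 69.6%, U2AF1 at -1.43 to -1.09, 228 to 2178 heavier and 528 to 1165 lighter. The extremes 1928, 43.7%, 228 and 528 are all without the 8-10 fraction. The chromosome 20 median then ran from 0.65 to 0.74, chromosome 21 from -0.83 to -0.70, PIGC to RASAL2 from -1.07 to -0.71 and TOMM20 to CEP170 from -1.08 to -0.60. Of 1768 single-gene values, 951 moved past their counting interval and 0 called genes changed sign. The causes were not tested. With 1 gradient per line, no difference has a replicate check.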

Other observations

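A pair of stretches on chromosome 1 followed the pattern of chromosome 21, with lower levels in S34F, but there FS was the line away from WT. The 15 genes from PIGC to RASAL2 had a median log2 difference of -0.85 in the gradient and -0.61 in Cytosol, with S34F at 0.05 and FS at 0.93 relative to WT in the gradient. Of these genes 3 were called lower, among them CENPL, a kinetochore protein, and KIAA0040. CENPL lost its call with DESeq2 factors and KIAA0040 with TMM factors. The 15 genes from TOMM20 to CEP170 had -0.69 in the gradient and -0.66 in Cytosol, with S34F at 0.33 and FS at 1.15 relative to WT. TOMM20, the receptor of the mitochondrial import pore, averaged 125.5 CPM in S34F, 333 CPM in FS and 100.0 CPM in WT, but was 69.1 CPM in S34F and 71.4 CPM in FS in Cytosol. Both stretches were picked by these values, and no test was run.

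Some genes with large differences fell outside the rule for naming and were picked after their values were seen. ZBTB16, the transcription factor PLZF, averaged 14.9 CPM in S34F, 2.44 CPM in FS and 1.33 CPM in WT, and was 6.28 CPM in S34F and 0.907 CPM in FS in Cytosol. NLRP2, an intracellular sensor of the NLR family, averaged 23.1 CPM in S34F and 3.96 CPM in FS, with 61.7 CPM in S34F and 6.72 CPM in FS in Cytosol. COL18A1, a basement membrane collagen, averaged 13.6 CPM in S34F, 3.45 CPM in FS and 4.19 CPM in WT. TMPRSS15, the serine protease enteropeptidase of the gut, averaged 4.45 CPM in S34F and 59.4 CPM in FS, with 1.14 CPM in WT, while Cytosol held 1.498 CPM in S34F and 1.92 CPM in FS. The log2 difference was -3.60 in the gradient and -0.27 in Cytosol.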
